A study of Mus musculus with 24 samples.

Results

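The genes described here encode the enzymes of heme synthesis and the mitochondrial carriers that supply them with glycine and iron. The 9 members were chosen by name: Alas2, Alad, Uros, Urod, Cpox, Ppox, Fech, Slc25a37 and Slc25a38. All 9 were found among the 25361 genes of the deposited expression table, and none was at 0 in any library. RNA was measured by poly-A RNA-seq in mouse embryonic livers at E12.5, each liver having been separated with CD146 MicroBeads into a CD146+ fraction of liver sinusoidal endothelial cells (LSECs) and the remaining non-EC liver cells. The study asked how deletion of the chromatin remodelers CHD4 and BRG1 in endothelial cells alters the developing liver. Each fraction was taken from 4 genotypes with 3 embryos each, so that 12 LSEC and 12 non-EC libraries were compared. Chd4-ECko embryos were Chd4 fl/fl and Brg1 fl/+ with VE-cadherin-Cre, Brg1-ECko embryos were Chd4 fl/+ and Brg1 fl/fl with VE-cadherin-Cre, and Brg1/Chd4-ECdko embryos were fl/fl for both genes with VE-cadherin-Cre. Controls were Cre-negative littermates with at least 1 floxed allele of each gene, so every group carried floxed alleles and each single mutant was also heterozygous for the other remodeler. The mice were of mixed background and both sexes were pooled. VE-cadherin-Cre is also active in some blood cells, red blood cells were lysed before the separation, and inhibitors of transcription were present during tissue digestion.

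Heme is built from glycine and succinyl-CoA by enzymes that lie partly in the mitochondrion and partly in the cytosol, and ferrochelatase inserts iron at the last step. Erythroid cells make most of the body's heme for hemoglobin, and for this they use their own isoform of the first enzyme, Alas2, and their own mitochondrial iron importer, mitoferrin 1 (Slc25a37). At this stage the fetal liver is the main site of erythropoiesis, where maturing erythroblasts surround hepatoblasts, macrophages and sinusoidal endothelium.

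Promoter sequence is shown for Alas2 and Cpox, the entry enzyme and the most abundant member, because GATA1 and KLF1 are known regulators of erythroid genes and their recognition letters could be looked up in the windows. The RefSeq promoter table (GRCm38.p6) held 7 of the 9 members, in 9 windows of 250 bases before the gene start. The windows shown were located in GRCm39 by exact match. The GATA letters searched were AGATAA or AGATAG or TGATAA or TGATAG, and the CACCC letters were CCNCNCCC, which GC boxes also match, both on either strand. GATA letters lay in 3 of the 9 windows (1 each of Alas2, Uros and Cpox), against 26.5% of 32851 promoter windows of the same length, 6.4% holding 2 or more matches. CACCC letters lay in 5 of the 9 windows, from 4 members (Alas2, Alad, Uros and Slc25a38), against 45.9% of all windows, 27.3% holding 2 or more matches. The matches of Uros lay in different windows, so that Alas2 alone held both in 1 window, as did 8.19% of all windows. The Alas2 gene lies on the X chromosome (chrX:149330371-149353634, plus strand, GRCm39), and its sequence upstream of that gene start (chrX:149330163-149330370, plus strand) contained a GATA match, shown in capitals, whose first base is 86 bases before the RefSeq start. The next stretch (chrX:149330367-149330396, plus strand) reaches 26 bases past the annotated gene start and held 4 CACCC matches, some overlapping, in capitals. The Cpox gene lies on chromosome 16 (chr16:58490414-58537999, plus strand), and the stretch shown (chr16:58490470-58490499, plus strand) is downstream of the annotated gene start and upstream of the RefSeq start. It held 2 overlapping GATA matches, in capitals, that begin 91 and 86 bases before the RefSeq start. These matches describe letters in the windows, and no binding was measured.
Alas2 upstream: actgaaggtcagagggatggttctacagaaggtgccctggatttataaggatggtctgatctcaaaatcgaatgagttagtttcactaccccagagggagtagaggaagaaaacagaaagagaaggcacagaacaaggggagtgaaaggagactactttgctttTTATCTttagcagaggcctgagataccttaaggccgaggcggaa
Alas2 start: ggaaGGGGGTGGGGTGGGGtGGGCGGGGct
Cpox: actaaagcgcCTATCTTATCAgtccaagca

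Values are TPM, transcript abundances scaled for transcript length and to a total of 1000000 in each library, so levels of different genes can be set side by side, but the depth that each library reached cannot be read from the values, and the methods of the study give only a planned number of reads. The endothelial markers, among them Cdh5, Pecam1, Stab2 and Lyve1, ranged in summed level from 1066 to 2254 TPM over the LSEC libraries, with 34.0 to 79.2 TPM over the non-EC ones, and 12 of 12 were higher in control LSECs. Mitochondrially encoded genes took 13.9% to 31.5% of the TPM of an LSEC library but 2.33% to 7.69% of that of a non-EC library. LSEC Brg1-ECko replicate 1 stood apart: its hepatoblast markers (10 genes, including Afp and Alb) summed to 30997 TPM, against at most 8939 TPM in the other 11 LSEC libraries. Whole-gene TPM of Chd4 was 246 to 285 in control LSECs and 168 to 252 in Chd4-ECko LSECs, and Smarca4, which encodes BRG1, was 134 to 161 and 111 to 157 in control and Brg1-ECko LSECs. These ranges overlap, and whole-gene TPM does not separate the floxed exons, so it is no check of the genotype labels.

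The members were expressed in both fractions of control livers and were higher in the non-EC cells without exception. In control non-EC cells Cpox was the highest, at 957 ± 271 TPM (SD, n = 3). It was followed by Urod at 272 ± 53.5 TPM, Alad at 205 ± 45.2 TPM and Slc25a37 at 147 ± 63.5 TPM. Below these came Fech at 82.4 ± 19.8, Slc25a38 at 63.1 ± 8.60, Alas2 at 56.0 ± 38.7, Uros at 36.4 ± 9.57 and Ppox at 26.2 ± 4.77 TPM. Cpox alone was separated from its neighbour in this order, its lowest control library (726 TPM) lying above the highest for Urod (333 TPM), while every other pair of neighbours overlapped. The order in control LSECs also began with Cpox and ended with Ppox, from 81.2 ± 30.9 to 6.68 ± 1.97 TPM, but there Cpox and Urod overlapped.

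**Figure D1:**
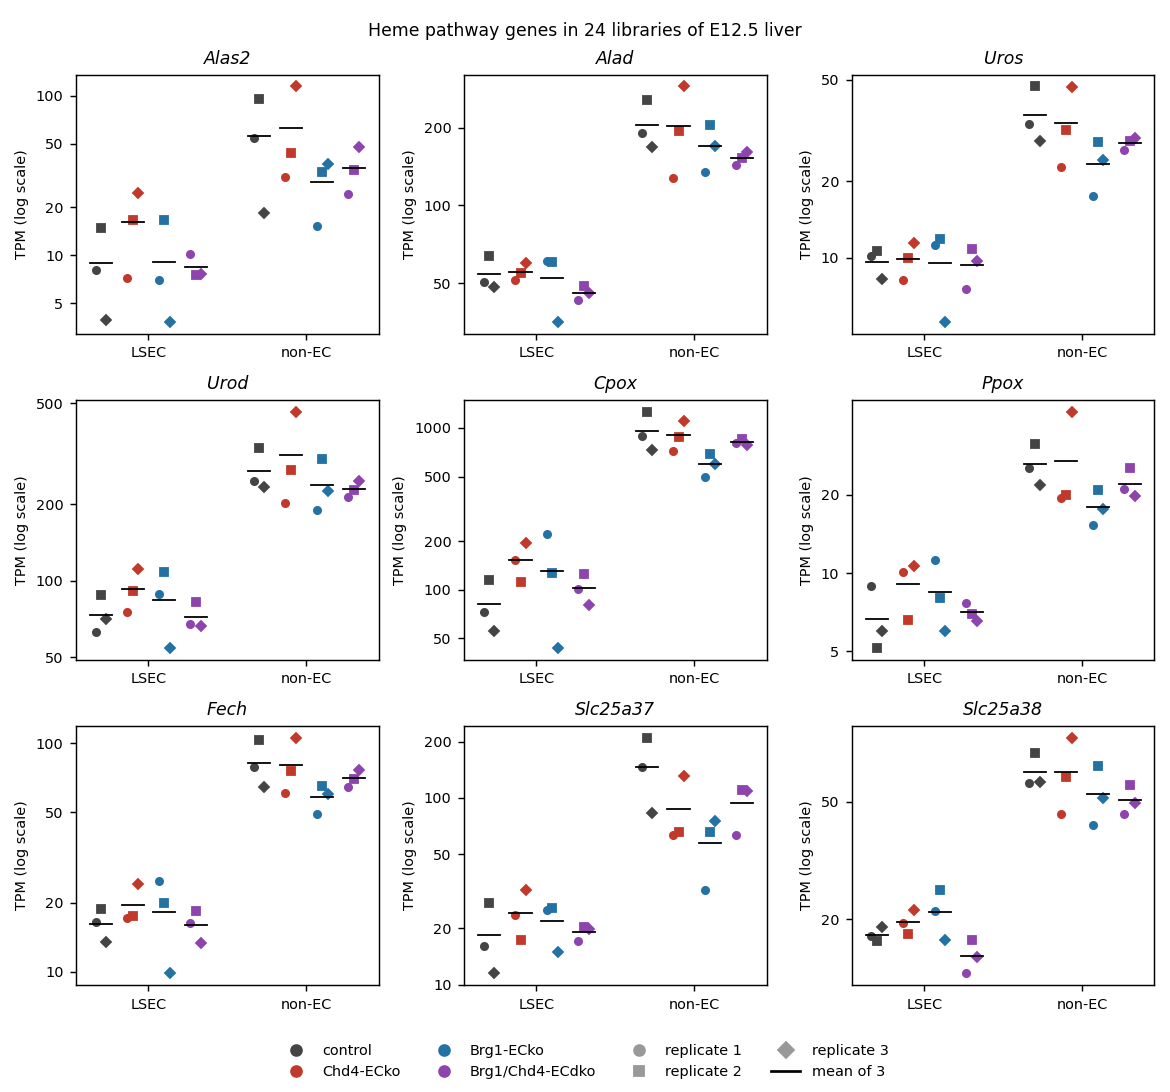
TPM of each of the 9 members in the 24 libraries on log axes, by fraction and genotype, with a point for each embryo and a bar at the mean of 3. Every control non-EC point lies above every control LSEC point of the same gene, narrowly for Alas2 (at least 18.3 against at most 14.8 TPM) and widely for Cpox (at least 726 against at most 115 TPM).

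The comparison of control LSECs with control non-EC cells asks where the RNA for heme synthesis lay in the liver before any gene was deleted. For Alas2, which makes 5-aminolevulinate and sets the rate of heme synthesis in erythroid cells, the control LSEC libraries had 8.11, 14.8 and 3.96 TPM and the control non-EC libraries 54.0, 95.6 and 18.3 TPM. The groups did not overlap, although the highest LSEC value and the lowest non-EC value were close. The mean was 6.25 times higher in the non-EC cells (log2 fold change LSEC over non-EC -2.39, SE 0.59, limma adjusted p = 0.00129). Here and throughout, log2 fold changes were fitted on log2(TPM + 1) with limma, p-values were adjusted over all genes tested by Benjamini-Hochberg, and a gene was called at an adjusted p under 0.05.

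The cytosolic enzymes that follow differed by a smaller and very similar factor. Alad, which condenses 5-aminolevulinate to porphobilinogen, had 50.6, 63.5 and 48.3 TPM in control LSECs and 191, 256 and 169 TPM in control non-EC cells, 3.79 times more. Uros, which closes the porphyrin ring, had 10.1, 10.6 and 8.24 TPM against 33.5, 47.1 and 28.7 TPM. Urod, which removes carboxyl groups from the ring, had 63.0, 87.7 and 70.6 TPM against 248, 333 and 234 TPM. The fold changes were -1.89 (SE 0.24) for Alad, -1.79 (SE 0.26) for Uros and -1.86 (SE 0.26) for Urod, which lay within each other's error.

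The mitochondrial enzymes of the last steps did not move as a block. Cpox, which oxidises coproporphyrinogen, had the largest difference of the 9, with 73.1, 115 and 55.2 TPM in control LSECs against 891, 1255 and 726 TPM in control non-EC cells. That is 11.8 times more in the non-EC cells (log2 fold change -3.57, SE 0.38, limma adjusted p = 6.59e-08). Ppox, which makes protoporphyrin, had 8.91, 5.17 and 5.97 TPM against 25.4, 31.3 and 21.9 TPM (log2 fold change -1.84, SE 0.26). Fech, the ferrochelatase, had 16.4, 18.8 and 13.4 TPM against 78.7, 104 and 64.7 TPM (log2 fold change -2.26, SE 0.26). The 95% interval for Cpox, -4.37 to -2.77, did not overlap that for Ppox, -2.38 to -1.30.

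The carriers showed the same direction with unequal size. Slc25a37, which brings iron into the mitochondrion of erythroid cells, had 16.2, 27.4 and 11.5 TPM in control LSECs and 146, 210.4 and 83.4 TPM in control non-EC cells, 7.99 times more (log2 fold change -2.92, SE 0.38). Slc25a38, which imports glycine for the first enzyme, had 17.5, 16.8 and 18.8 TPM against 57.9, 73.0 and 58.3 TPM, the smallest ratio of the members at 3.56 (log2 fold change -1.77, SE 0.19). By limma, 9 of 9 members were lower in control LSECs, with adjusted p from 5.67e-08 to 0.00129, where 35.8% of the 13775 genes tested were called lower. All 9 also had groups that did not overlap, where 40.2% of genes tested were lower without overlap. The median log2 fold change was -1.89 over the members and -0.09 over all genes tested.

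**Figure D2:**
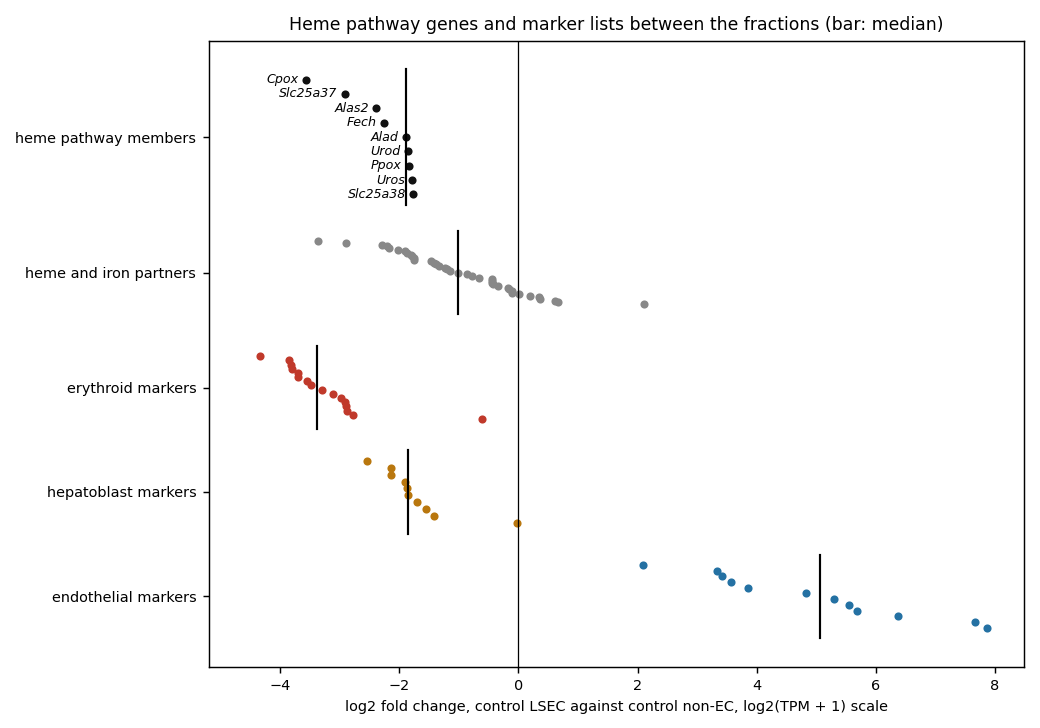
Fitted log2 fold change of control LSECs over control non-EC cells, with a point for each gene of the 9 members and of 4 lists (heme and iron partners, erythroid, hepatoblast and endothelial markers) and a bar at each list's median. The members run from Cpox at -3.57 to Slc25a38 at -1.77, between the medians of the erythroid (-3.39) and heme and iron partner (-1.01) lists for all but Cpox, and opposite to the endothelial markers (median 5.07).

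In bulk RNA, fewer cells of a type and less RNA per cell cannot be told apart. Markers of erythroid cells (16 genes, among them Klf1, Slc4a1 and Rhag) moved with the members: 15 of 16 were lower in control LSECs, with a median log2 fold change of -3.39, and they summed to 123 to 340 TPM in control LSECs against 1721 to 3016 TPM in control non-EC cells. Of these markers, 1 was at 0 in some LSEC library and none in any non-EC library. The hepatoblast markers were also lower in control LSECs, 9 of 10, with a median of -1.86. The part of either cell type in the difference was not tested. With mitochondrially encoded and globin genes removed and TPM rescaled, which moved the median of all genes from -0.09 to 0.16, 9 of 9 members were still lower in control LSECs.

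Set against the summed erythroid markers of the same library, Cpox kept the same proportion in both fractions and the other members did not. Cpox stood at 39.6 ± 5.53 TPM per 100 TPM of erythroid markers in control LSECs and at 41.6 ± 0.645 in control non-EC cells, and the ranges overlapped. Slc25a37 stood at 8.74 ± 0.656 in control LSECs and 6.17 ± 1.16 in control non-EC cells, and Alas2 at 3.997 ± 0.665 and 2.24 ± 1.07. Neither of these overlapped, both being higher per erythroid marker in LSECs, but Alas2 only narrowly (at least 3.23 against at most 3.17). The remaining 6 members were also higher per erythroid marker in each control LSEC library, by wider margins for most of them: Alad stood at 28.5 ± 10.4 against 9.03 ± 0.703, Urod at 39.2 ± 16.5 against 12.0 ± 1.38, and Fech at 8.48 ± 2.75 against 3.603 ± 0.160. These proportions are a description without a test.

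In LSECs, deletion of Chd4 was compared with control to see whether heme genes moved in the endothelial fraction. No member was called by limma (0 of 9, with 0.707% of 13444 genes called). At an unadjusted p under 0.05 there were 0 members and 6.49% of genes tested. Cpox came nearest, with 152, 112 and 194 TPM in Chd4-ECko LSECs against 73.1, 115 and 55.2 TPM in control LSECs. Its highest control library lay above the lowest Chd4-ECko library, and the fit gave a log2 fold change of 0.93 (SE 0.44, 95% interval -0.01 to 1.88, adjusted p = 0.788). Alas2 had 7.21, 16.7 and 24.5 TPM in Chd4-ECko LSECs, so that replicate 1 was below the control mean and replicates 2 and 3 above every control library (log2 fold change 0.79, SE 0.49, 95% interval -0.26 to 1.84).

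The estimates for the remaining members in Chd4-ECko LSECs were 0.43 for Slc25a37, 0.40 for Ppox, 0.32 for Urod, 0.26 for Fech, 0.14 for Slc25a38, 0.04 for Alad and 0.03 for Uros. The estimates were positive for 9 of 9, with all groups overlapping, a median of 0.32 against 0.01 over all genes, and a sign that turned for Alad and Uros without LSEC Chd4-ECko replicate 3 or LSEC control replicate 3, for Alad without LSEC control replicate 1 and for Uros under quantile normalization. LSEC Chd4-ECko replicate 3 was the highest of its group for 9 of 9 members and also had the highest erythroid marker sum, 443 TPM, where the other Chd4-ECko LSEC libraries had 274 and 256 TPM. Among the erythroid markers 0 of 16 were called (median 0.64). The embryonic globin genes, which erythroid cells of the yolk sac express, rose in Chd4-ECko LSECs: Hbb-bh1 stood at 407 ± 350 TPM there and at 2.79 ± 1.00 TPM in control LSECs, and Hba-x and Hbb-y were called as well. Of the myeloid markers 3 of 12 were called higher. How these RNAs bear on the members' estimates was not tested.

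In Brg1-ECko LSECs 0 of 9 members were called by limma (0.0223% of 13444 genes called, 0 members and 9.68% of genes at an unadjusted p under 0.05). Cpox ran from 43.8 to 221 TPM over the 3 libraries, wider than the range of any other group of LSECs, and Fech from 9.83 to 25.0 TPM. The highest value of each came from replicate 1, the library with the high hepatoblast sum, and the lowest from replicate 3, which was lowest for 9 of 9 members and had the lowest erythroid marker sum of all libraries, 77.7 TPM. The endothelial markers summed to 1066, 1408 and 1707 TPM in these libraries, below every control LSEC library (1722 to 2254 TPM), with 12 of 12 estimates negative, 0 called and a median of -0.46. What part these markers have in the members' values was not tested. The estimates were 0.46 (SE 0.44) for Cpox, 0.08 (SE 0.27) for Fech and -0.02 (SE 0.49) for Alas2. Without replicate 1 they were -0.06, -0.18 and 0.04, and none was called.

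In Brg1/Chd4-ECdko LSECs 0 of 9 members were called against control by limma (0.870% of 13444 genes called, 0 members and 12.1% of genes at an unadjusted p under 0.05). Cpox had 100.7, 125 and 80.1 TPM, overlapping the control libraries (log2 fold change 0.37, SE 0.44, 95% interval -0.58 to 1.31). Alas2 had 10.1, 7.53 and 7.63 TPM, within the control range. The embryonic globin genes were called higher in these LSECs too, with log2 fold changes of 5.22 for Hbb-bh1, 3.11 for Hba-x and 2.30 for Hbb-y, and their bearing on the members was not tested.

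The double mutant was also compared with Chd4-ECko directly, since the study asked what loss of Brg1 changes in Chd4 mutants. In LSECs 0 of 9 members were called by limma (0.0372% of 13444 genes called). An unadjusted p under 0.05 was found for 1 member, Slc25a38, and for 10.4% of genes tested. Slc25a38 had 13.1, 16.9 and 14.9 TPM in Brg1/Chd4-ECdko LSECs and 19.5, 17.9 and 21.4 TPM in Chd4-ECko LSECs, so the groups did not overlap (log2 fold change -0.37, SE 0.16, limma adjusted p = 0.475). Alad did not overlap either, with 43.2, 48.5 and 45.97 TPM against 51.6, 54.6 and 59.9 TPM (log2 fold change -0.26, SE 0.19, adjusted p = 0.580). These are 2 of 9 members, where 2.25% of genes tested were lower without overlap.

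Estimates for the others in that comparison were -0.73 for Alas2, -0.56 for Cpox, -0.35 for Urod, -0.30 for Ppox, -0.30 for Slc25a37, -0.27 for Fech and -0.07 for Uros. The median was -0.30 over the members and 0.13 over all genes tested. Erythroid markers had a median of -0.48 with 0 of 16 called. Estimates were negative for 7 of 7 globin genes (median -1.12) and 12 of 12 myeloid markers (-0.37), and positive for 10 of 10 hepatoblast markers (0.51). The part of these lists in the members' values was not tested.

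In the non-EC cells, the widest departure of a member from control was that of Slc25a37 in Brg1-ECko livers. The control libraries had 146, 210.4 and 83.4 TPM and the Brg1-ECko libraries 32.0, 65.7 and 75.4 TPM, a mean 0.394 times that of control. The groups did not overlap, with the highest Brg1-ECko and the lowest control library close together. The estimate was -1.32 (SE 0.41, 95% interval -2.23 to -0.41), and it missed the threshold after adjustment (limma adjusted p = 0.0621).

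Cpox had 496, 691 and 601 TPM in Brg1-ECko non-EC cells against 891, 1255 and 726 TPM in control non-EC cells, again without overlap (log2 fold change -0.66, SE 0.20, 95% interval -1.10 to -0.21, limma adjusted p = 0.0587). Both genes therefore lay just outside the threshold, and whether they passed depended on the processing. Both were called with the replicate number as a block (adjusted p = 0.0418 for Cpox and 0.0481 for Slc25a37) and without non-EC control replicate 3 (0.0321 and 0.0368). Cpox was also called after quantile normalization (0.0251) and with mitochondrial and globin genes removed (0.0408).

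The other members were also lower on average, by less than Cpox in each case except Alas2. Uros had 17.5, 28.5 and 24.2 TPM in Brg1-ECko against 33.5, 47.1 and 28.7 TPM in control non-EC cells, with the groups just apart (log2 fold change -0.61, SE 0.26, adjusted p = 0.145). Ppox had 15.3, 21.0 and 17.7 TPM against 25.4, 31.3 and 21.9 TPM, also just apart (log2 fold change -0.51, SE 0.26, adjusted p = 0.214). Fech had 49.0, 64.8 and 60.3 TPM against 78.7, 104 and 64.7 TPM and overlapped narrowly (log2 fold change -0.48, SE 0.21, adjusted p = 0.157). Alas2 was too scattered to separate, at 15.2, 33.4 and 37.2 TPM against 54.0, 95.6 and 18.3 TPM (log2 fold change -0.76, SE 0.60, adjusted p = 0.422). Alad, Slc25a38 and Urod overlapped widely, at -0.27, -0.26 and -0.19.

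By limma 0 of 9 members were called in Brg1-ECko non-EC cells, where 11.7% of the 12223 genes tested were called. An unadjusted p under 0.05 was found for 4 members (Cpox, Slc25a37, Uros and Fech) and for 28.0% of genes tested. Groups were lower without overlap for 4 of 9 members (Slc25a37, Cpox, Uros and Ppox), where 18.0% of genes tested were. The members' median was -0.51 and that of all genes 0.02. Replicate 1 was the lowest Brg1-ECko library for 9 of 9 members, and it also had the lowest erythroid marker sum of the non-EC libraries, 997 TPM.

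Other cell markers moved in the same libraries. Erythroid markers summed to 997 to 1640 TPM in Brg1-ECko against 1721 to 3016 TPM in control non-EC cells, and 6 of 16 were called lower, among them Hemgn (median -0.71). Hepatoblast markers summed to 28224 to 41537 TPM against 19019 to 21253 TPM, and 9 of 10 were called higher (median 0.92). Per 100 TPM of erythroid markers, Cpox stood at 41.6 ± 0.645 in control and 43.9 ± 5.15 TPM in Brg1-ECko non-EC cells, and Fech at 3.603 ± 0.160 and 4.29 ± 0.544 TPM. Slc25a37 stood at 6.69, 6.98 and 4.85 in control and at 3.21, 4.01 and 5.01 in Brg1-ECko non-EC cells, lower on average but overlapping. Fech and another 3 members lay above every control library on this scale: Alad at 12.4 ± 1.07 against 9.03 ± 0.703, Urod at 17.5 ± 2.21 against 12.0 ± 1.38 and Slc25a38, narrowly, at 3.87 ± 0.391 against 2.82 ± 0.505 TPM per 100 TPM. Alas2, Uros and Ppox overlapped. These ratios are a description, with no test. What part the cell markers have in the lower heme RNAs was not tested.

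**Figure D3:**
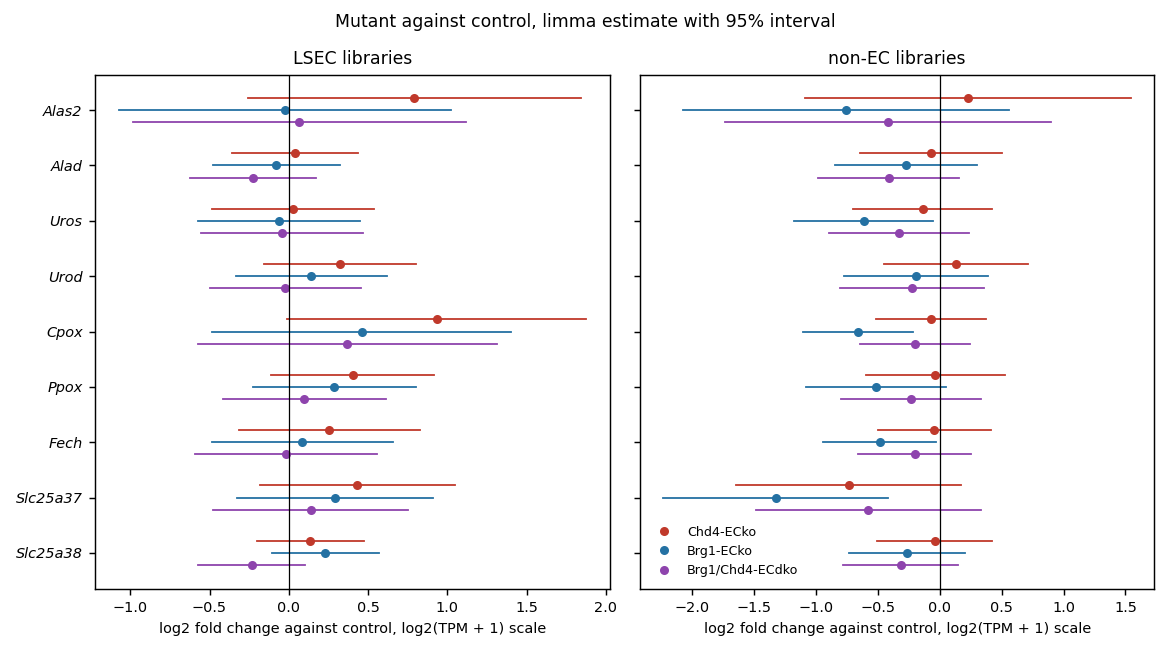
Fitted log2 fold change of each member in each mutant over control, with 95% intervals from limma, for LSECs and for non-EC cells. In Brg1-ECko non-EC cells the intervals of Slc25a37 (-2.23 to -0.41) and Cpox (-1.10 to -0.21) lie below 0. Those of Uros (-1.18 to -0.05) and Fech (-0.94 to -0.03) do as well, and none of these was called after adjustment.

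In Chd4-ECko non-EC cells 0 of 9 members were called by limma (9.48% of 12223 genes called, 0 members and 33.9% of genes at an unadjusted p under 0.05). The number of genes called here, 1159, turned on single libraries: it was 4592 of 12180 without Chd4-ECko replicate 1, 359 to 452 without any other 1 library of the comparison, and 165 of 11848 with only the groups compared. Slc25a37 had 63.7, 65.6 and 131 TPM, with replicates 1 and 2 below every control library and replicate 3 inside the control range (log2 fold change -0.73, SE 0.41, 95% interval -1.64 to 0.17, adjusted p = 0.232). Alas2 had 31.0, 44.0 and 114 TPM, replicate 3 being the highest of all 24 libraries (log2 fold change 0.23, SE 0.60). In this group replicate 3 was highest and replicate 1 lowest for 9 of 9 members, and the erythroid marker sum followed the same order, at 1354, 1800 and 2773 TPM in replicates 1, 2 and 3. Of the erythroid markers 2 of 16 were called lower and of the hepatoblast markers 7 of 10 higher, and 3 of 7 globin genes, all embryonic (Hbb-bh1, Hba-x and Hbb-y), were called higher. The part of these cell types was not tested.

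In Brg1/Chd4-ECdko non-EC cells 0 of 9 members were called against control by limma (0.581% of 12223 genes called, 0 members and 11.7% of genes at an unadjusted p under 0.05). Slc25a37 had 63.6, 109.9 and 109 TPM, a mean of 94.2 ± 26.6 TPM that lay between those of Brg1-ECko and control (log2 fold change -0.58, SE 0.41, 95% interval -1.49 to 0.33). Alad had 143, 153 and 161 TPM against 191, 256 and 169 TPM in control, without overlap (log2 fold change -0.41, SE 0.26, adjusted p = 0.648). Slc25a38 had 45.3, 56.7 and 49.5 TPM against 57.9, 73.0 and 58.3 TPM, also without overlap (log2 fold change -0.31, SE 0.21, adjusted p = 0.684). These are 2 of 9 members, where 8.01% of genes tested were lower without overlap.

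The other estimates were -0.42 for Alas2, -0.33 for Uros, -0.23 for Ppox, -0.22 for Urod, -0.20 for Fech and -0.20 for Cpox, with a median of -0.31 over the members and 0.01 over all genes. The sign of Cpox and Alas2 turned without non-EC control replicate 2. Erythroid markers had a median of -0.34 with 0 of 16 called. Hepatoblast markers summed to 24650 to 32789 TPM, above the 19019 to 21253 TPM of control non-EC cells, with 10 of 10 estimates positive, 1 called and a median of 0.55. The part of either was not tested. Against Chd4-ECko, 0 of 9 members were called in double mutant non-EC cells by limma, with 0% of 12223 genes called. At an unadjusted p under 0.05 there were 0 members and 21.8% of genes tested. Without non-EC Chd4-ECko replicate 1, Alad was called there (log2 fold change -0.64, adjusted p = 0.0428), in a fit that called 3943 of 12180 genes, and Alad was not called in any other setting (adjusted p up to 0.957). The mutant comparisons within a fraction share the same control libraries.

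Whether a mutant effect differed between the fractions was tested as an interaction in a model of all 24 libraries, LSEC effect minus non-EC effect. For Brg1-ECko 0 of 9 members were called by limma (1.04% of 13775 genes called). Of the members, 2 had an unadjusted p under 0.05, Slc25a37 and Ppox, as did 17.9% of genes tested. The difference was 1.61 (SE 0.54, adjusted p = 0.134) for Slc25a37, 0.80 (SE 0.37, adjusted p = 0.258) for Ppox and 1.12 (SE 0.54, adjusted p = 0.284) for Cpox. Without LSEC Brg1-ECko replicate 3 the difference for Cpox was 1.76 and was called (adjusted p = 0.0306), in a fit that called 325 of 13742 genes. Over all settings it ran from 0.60 to 1.76, with adjusted p up to 0.568 without LSEC Brg1-ECko replicate 1, and it was called in no other. For Chd4-ECko 0 of 9 were called (1.02% of genes called). An unadjusted p under 0.05 was found for 1 member, Slc25a37 (difference 1.17, SE 0.54, adjusted p = 0.244), and for 19.1% of genes tested. The genes called for the Chd4-ECko difference, 140 in all, became 16 without LSEC control replicate 2 and 1913 without non-EC Chd4-ECko replicate 1. For Brg1/Chd4-ECdko 0 of 9 were called (0.0581% of genes called, 0 members and 7.57% of genes at an unadjusted p under 0.05). A block for the embryo took the LSEC and non-EC libraries of 1 genotype and replicate number as 1 liver, which is an assumption. With this block 0 of 9 members were called by limma in each of the 3 differences. The nearest was Slc25a37 in Brg1-ECko (SE 0.37, adjusted p = 0.0656) and in Chd4-ECko (adjusted p = 0.123).

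A p above the threshold does not show equal effects, and all of these differences share the same control libraries. The estimates were positive for 9 of 9 members in each difference, with medians of 0.57 for Brg1-ECko, 0.30 for Chd4-ECko and 0.28 for Brg1/Chd4-ECdko, where those of all genes were 0.05, 0.03 and 0.12. Over all settings no member's sign turned in Brg1-ECko. In Chd4-ECko the lowest estimates were below 0 for Alad (-0.19), Urod (-0.08), Uros (-0.08) and Slc25a38 (-0.03). In Brg1/Chd4-ECdko they were below 0 for Slc25a38 (-0.17), Fech (-0.04), Alas2 (-0.04) and Alad (-0.02). The log2 level of Slc25a37 in LSECs minus that in non-EC cells was taken within pairs of libraries assumed to be 1 embryo. It was -3.10 to -2.76 in control, -2.26 to -0.33 in Brg1-ECko, -2.01 to -1.39 in Chd4-ECko and -2.40 to -1.83 in Brg1/Chd4-ECdko livers. Each mutant lay above control without overlap. Cpox was at -3.69 to -3.43 in control and at -2.96 to -2.24 in Chd4-ECko livers, also without overlap. In all, 2 of 9 members lay above control in this way in Brg1-ECko, 3 of 9 in Chd4-ECko and 3 of 9 in Brg1/Chd4-ECdko, where 20.6%, 13.1% and 17.5% of genes tested did. The erythroid markers moved the same way, with 16 of 16 estimates positive in Brg1-ECko (median 0.87), 16 of 16 in Chd4-ECko (0.85) and 14 of 16 in Brg1/Chd4-ECdko (0.30). Positive estimates were also found for 10 of 10 erythroid transcription factors in each difference. Among myeloid markers they were found for 9 of 12, 12 of 12 and 12 of 12 (medians 0.40, 0.92 and 0.82 in the same order). Hepatoblast markers went the other way in Chd4-ECko, 9 of 10 negative (-0.82), and endothelial markers in Brg1-ECko, 11 of 12 negative (-0.56). The part of these lists in the members' values was not tested.

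The surrounding pathway was followed in 39 partner genes of heme and iron handling. In control LSECs 28 of 39 were lower than in control non-EC cells, 4 were higher and 7 were not called (median log2 fold change -1.01). Of all genes tested, 35.8% were called lower and 31.3% higher. The partners named next had the smallest adjusted p and were all lower. Tfrc, the transferrin receptor, had 65.0 ± 12.9 TPM in control LSECs and 486 ± 42.7 TPM in control non-EC cells (log2 fold change -2.90, SE 0.31). Steap3, the endosomal ferrireductase, had 3.96 ± 1.36 against 49.8 ± 10.4 TPM (-3.37, SE 0.35), and Slc11a2, which moves iron out of the endosome, had 4.54 ± 0.272 against 19.4 ± 1.61 TPM (-1.88, SE 0.13).

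The mitochondrial transporters Abcb10 (-2.17) and Abcb6 (-1.81), the iron-sulfur cluster genes Glrx5 (-1.76) and Nfs1 (-1.76), the serine hydroxymethyltransferase Shmt2 (-1.91), which makes glycine in mitochondria, and the heme-regulated kinase Eif2ak1 (-1.33) were lower in control LSECs as well. The 4 genes that were higher in control LSECs were named after their values were seen. They are the heme oxygenases Hmox1, at 286 ± 78.2 against 71.1 ± 35.9 TPM (log2 fold change 2.12), and Hmox2 (0.67), the heme-binding repressor Bach1 (0.61) and Pgrmc1 (0.36), whose call was lost when any of the 6 control libraries was left out (adjusted p from 0.0561 to 0.138), with the replicate number as a block (0.0637), with no filter (0.0533) and without trend (0.0537).

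The housekeeping counterparts of the erythroid members, also named with their values known, differed little between the fractions. Alas1, the isoform of the first enzyme used outside the erythroid lineage, had 17.6, 18.4 and 16.1 TPM in control LSECs and 25.3, 16.98 and 25.8 TPM in control non-EC cells (log2 fold change -0.35, SE 0.14, limma adjusted p = 0.0306). Slc25a28, mitoferrin 2, had 19.8, 19.5 and 18.6 TPM against 32.8, 25.4 and 22.6 TPM (-0.44, SE 0.16, adjusted p = 0.0195). Their estimates were called, but they were far smaller than those of Alas2 (-2.39) and Slc25a37 (-2.92), and with mitochondrial and globin genes removed they were -0.09 and -0.19 and not called. Alas1 also lost its call with only the groups compared (adjusted p = 0.0878). Leaving out 1 library in turn kept the call of Alas1 in 2 of 6 fits and that of Slc25a28 in 4 of 6 (adjusted p up to 0.160 without non-EC control replicate 3 and 0.133 without non-EC control replicate 1). In control LSECs Alas1 was higher than Alas2 in each library, whereas in control non-EC cells Alas2 was higher in replicates 1 and 2 and lower in replicate 3.

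Partners were not called in LSECs of any mutant against control (0 of 39 by limma in each). In Brg1-ECko non-EC cells 3 of 39 rose and 2 fell, where 11.7% of all genes tested were called, so the share of partners called was near that of all genes. Flvcr2, a relative of the heme exporter Flvcr1, had 5.44, 4.27 and 4.57 TPM in control and 12.2, 8.84 and 10.4 TPM in Brg1-ECko non-EC cells (log2 fold change 0.99, SE 0.17, adjusted p = 0.00409). Slc25a39, a mitochondrial glutathione carrier, had 94.0 ± 6.04 against 131 ± 3.76 TPM (0.48, adjusted p = 0.0108), and Aco1, the iron regulatory protein and cytosolic aconitase, rose by 0.48 (adjusted p = 0.0279). Isca1, of iron-sulfur cluster assembly, fell by 0.43 (adjusted p = 0.0221). With 1 library left out in turn, Flvcr2 and Slc25a39 were called in 6 of 6 fits. Aco1 and Isca1 were each called in 3 of 6, both losing the call without Brg1-ECko replicate 1 or 3 or control replicate 2 (adjusted p up to 0.1001 and 0.0923), and Aco1 also lost it without mitochondrial and globin genes (0.0509).

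Tfrc fell in the non-EC cells of both single mutants. It had 491, 527 and 442 TPM in control, 221, 186 and 250.3 TPM in Brg1-ECko (log2 fold change -1.16, SE 0.32, adjusted p = 0.0382) and 374, 168 and 114 TPM in Chd4-ECko non-EC cells (-1.33, SE 0.32, adjusted p = 0.0306). Neither single mutant overlapped control. The double mutant, at 433, 397 and 407 TPM, also lay below every control library but was not called. The calls were fragile: the Brg1-ECko call was lost when any of the 6 libraries was left out (adjusted p up to 0.113) and with no filter (0.0612), and the Chd4-ECko call was kept in 1 of 6 such fits (without Chd4-ECko replicate 1, adjusted p = 0.000599, and otherwise up to 0.0923). In Chd4-ECko non-EC cells Flvcr2 (0.90, adjusted p = 0.0115) and Slc25a39 (0.44, adjusted p = 0.0241) rose and Bach1 (-0.87, adjusted p = 0.0494) fell, so that 2 of 39 partners were called higher and 2 lower, near the 9.48% of all genes called. With 1 library left out in turn these 3 were called in 6, 2 and 1 of 6 fits, and Slc25a39 and Bach1 each lost the call without Chd4-ECko replicate 2 or 3 or control replicate 1 or 3 (adjusted p up to 0.0836 and 0.154). With only the groups compared in the fit, none of the 4 Chd4-ECko calls was kept (adjusted p = 0.0604 for Flvcr2, 0.154 for Slc25a39, 0.154 for Tfrc and 0.187 for Bach1). Bach1 also lost its call with no filter (0.0732), without mitochondrial and globin genes (0.0529) and without trend (0.0550). Of the partners, Tfrc was the only gene whose Chd4-ECko effect differed between the fractions (LSEC minus non-EC 1.96, SE 0.43, adjusted p = 0.0317, called in 3 of 12 fits that left out 1 library and not with only the groups compared, adjusted p = 0.0775). In Chd4-ECko LSECs it had 111, 76.5 and 119 TPM against 66.3, 77.1 and 51.4 TPM in control LSECs. The erythroid markers (16 of 16 positive, median 0.85) and myeloid markers (12 of 12, median 0.92) moved the same way as Tfrc in that difference, and their part in it was not tested.

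**Figure D4:**
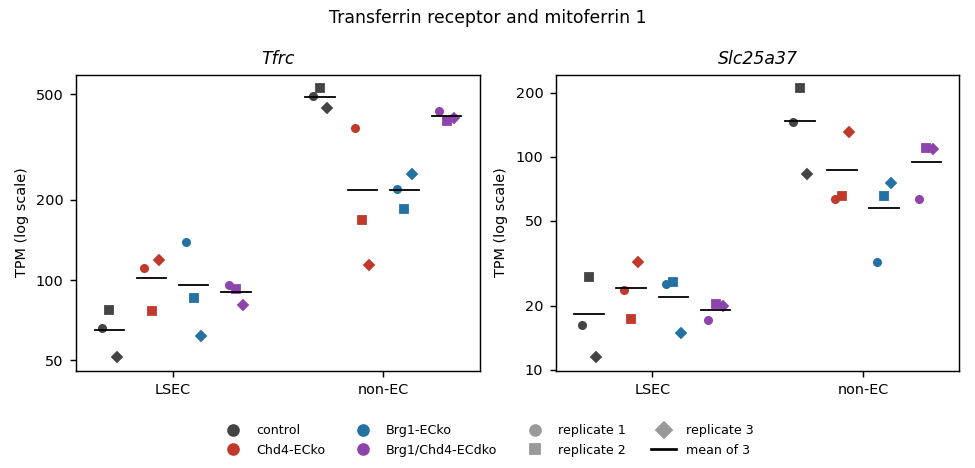
TPM of Tfrc, which takes up transferrin-bound iron, and of Slc25a37, which carries iron into the mitochondrion, in each of the 24 libraries by fraction and genotype. Tfrc lies between 442 and 527 TPM in control non-EC cells and at or below 374 TPM in those of both single mutants, and Slc25a37 has its lowest non-EC value, 32.0 TPM, in Brg1-ECko replicate 1.

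The members varied together from library to library. Over the 12 non-EC libraries the correlation of log2(TPM + 1) between pairs of members ran from 0.60 to 0.98 with a median of 0.86 over 36 pairs, and over the 12 LSEC libraries from 0.23 to 0.93 with a median of 0.67. The points share library, scaling and genotype, and these values are a description. Alas2 had the widest range, 7.51-fold from the lowest to the highest non-EC library and 6.40-fold over LSEC libraries, and Slc25a37 spanned 6.58-fold in non-EC cells. Slc25a38 varied least in non-EC cells, 1.98-fold. Within groups the same libraries were high or low for most members: non-EC control replicate 2 was highest for 9 of 9.

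The genes most like Alas2 over the 12 non-EC libraries by Pearson correlation were Slc4a1, the band 3 anion exchanger (0.97), Hba-a1, an adult alpha globin gene (0.96), E2f2 (0.96), Fam210b (0.96) and Trim10 (0.95). Among members Fech was the most like it, 8th of 12222 genes with 0.93. Over the 12 LSEC libraries the most like Alas2 were Blvrb, which reduces biliverdin (0.93), Rnaseh2a (0.91), Slc4a1 (0.89), Hebp1, a heme-binding protein gene (0.88), and Spata24 (0.88). Among members it was Urod there, 28th of 13443 genes with 0.80. Slc4a1 was thus near the top in both fractions.

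**Figure D5:**
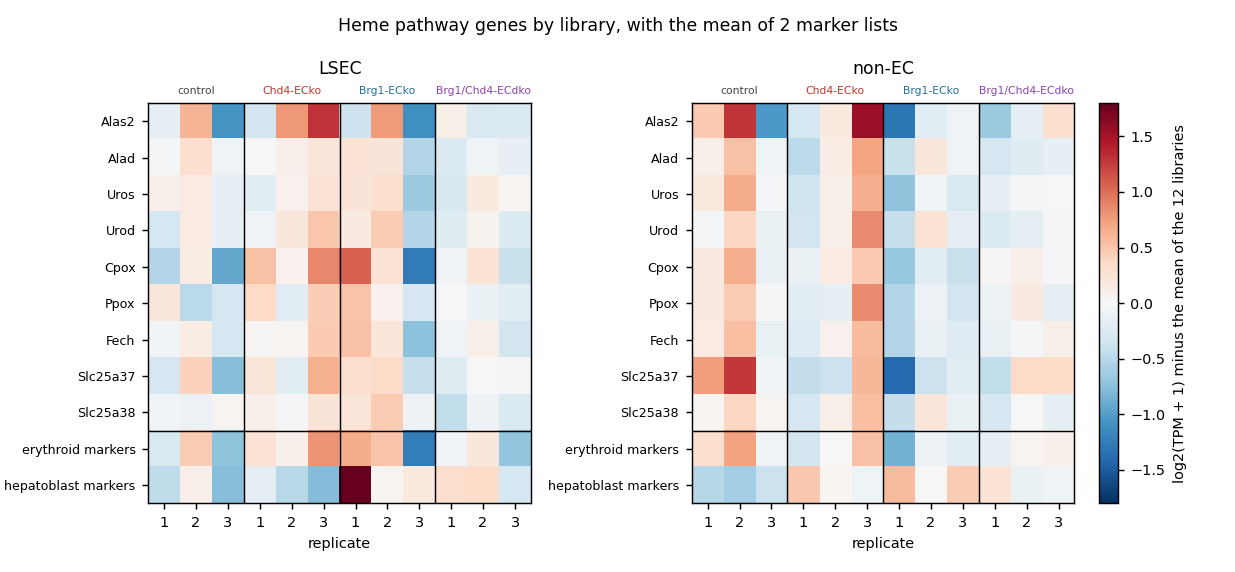
Deviation of each library from the mean of its fraction in log2(TPM + 1), for the 9 members and for the mean of the erythroid and hepatoblast marker lists, with libraries in columns and colour for the deviation. Members are low together in non-EC Brg1-ECko replicate 1 and high together in non-EC Chd4-ECko replicate 3, where the erythroid marker sums are 997 and 2773 TPM.

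Between the fractions, members were correlated over 12 pairs of libraries of the same genotype and replicate number, each pair assumed to be 1 embryo. The 9 relations formed a family, tested with 100000 permutations each, two-sided. The largest was that of Alas2, with Pearson's r of 0.64 (permutation p = 0.0262, adjusted 0.132) and Spearman's rho of 0.57 (permutation p = 0.0560, adjusted 0.504). Without the 2 libraries farthest from the median r was 0.45. Urod gave r of 0.62 (permutation p = 0.0294, adjusted 0.132) and rho of 0.45 (permutation p = 0.147, adjusted 0.624), and r of 0.41 without the 2 farthest. None of the 9 relations passed the adjustment, and the pooled values include the differences between genotypes, without which r was 0.61 for both genes.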

How the data were processed

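Poly-A RNA of 24 fractions of mouse E12.5 livers was sequenced. Per the study's methods, repeated guanines were trimmed from the reads, which were aligned in CLC Genomics Workbench, and the submitters' processing notes name GRCm39 (mm39) as the genome. The authors deposited a TPM value for each of 25361 genes and each library, the treatment of reads shared between genes is not given in the sources used here, and 0 columns of per-sample values lacked a matching sample. All samples are labelled batch 1. Read depth cannot be recovered from TPM, so no counting interval or floor is given.

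Each fraction was fitted on log2(TPM + 1) with limma 3.58.1 in R 4.3.3, with group means, moderation with trend, two-sided tests and Benjamini-Hochberg adjustment over the genes reaching 1 TPM in 3 or more libraries (13444 in LSECs, 12223 in non-EC cells, 13775 in the model of 24 libraries used for fractions and interactions). Tables and permutation tests were made with Python 3.11.15, pandas 2.3.3, numpy 2.4.6 and scipy 1.17.1. The fit was tested on simulated data for LSEC Chd4-ECko against control: of 200 changed genes among 13306, 76% of those changed by a log2 of 1 and 97% of those changed by 2 were recovered, with 9 false calls. Noise was drawn independently for each gene and library, and changed genes were drawn from those with a mean log2(TPM + 1) above 3. The members vary together in the real libraries, so these shares do not give the power to find a change in them. All members were named, and of the partner list up to 10 genes with the smallest adjusted p in each comparison, of which 1 is not reported here. The members and the lists (heme and iron partners, globin genes, erythroid transcription factors, erythroid, endothelial, hepatoblast, myeloid and megakaryocyte markers) were chosen with earlier results of these data known. Each sample is 1 embryo, and no 2 libraries held identical values. The sample titles name no embryo, and LSEC and non-EC libraries of 1 genotype and replicate number were taken as 1 embryo. They deviated together in 12 of 12 pairs (correlation at least 0.124, mean 0.270). Same-numbered libraries of different genotypes also correlated on average (0.171 in LSECs, 0.127 in non-EC cells). Different numbers of 1 genotype were not compared between the fractions, so these values do not settle the pairing, which remains an assumption. Alternatives were a pseudocount of 0.1 TPM, no filter, quantile normalization, a stricter filter (mean TPM of 5 or more), TPM without mitochondrial and globin genes, moderation without trend, a replicate block (the embryo in the model of 24 libraries), only the groups compared, and each library left out. No alternative was added after the data were seen.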

Additional observations from a re-analysis of the deposited data

Results flagged for a closer look

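The effect of Chd4 deletion on Tfrc differed between the fractions. The Chd4-ECko mean of Tfrc was above that of control in LSECs (102 and 65.0 TPM) and below it in the non-EC cells (219 and 486 TPM). The difference of the effects was 1.96 on the log2 scale (SE 0.43, limma interaction adjusted p = 0.0317), and it was called in 11 of 21 settings, with adjusted p from 0.000587 to 0.0883. In the same difference 16 of 16 erythroid markers (median 0.85), 10 of 10 erythroid transcription factors (0.80) and 12 of 12 myeloid markers (0.92) had positive estimates, and their part in that of Tfrc was not tested. No member of the heme synthesis group had an effect whose difference between the fractions was called with all libraries in the model.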

How the results depend on the processing

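All 9 members were called lower in control LSECs than in control non-EC cells in each of the 15 settings tried, the replicate block included. In Brg1-ECko non-EC cells the members called went from 0 to 1 with quantile normalization, to 1 with mitochondrial and globin genes removed, to 2 with the replicate block, and to between 0 and 2 with 1 library left out. Same-numbered libraries of different genotypes deviated together (correlation over 0.1) in 13 of 18 pairs in LSECs (mean 0.171) and 10 of 18 in non-EC cells (mean 0.127), against 8 of 36 pairs of different numbers in each (mean -0.085 and -0.067). Not every pair did, so within a fraction the number was not taken as a pairing. The replicate block changed no other count of members. With 1 library left out, 0 to 1 members were called for the Brg1-ECko difference between fractions and 0 to 1 for the double mutant against Chd4-ECko in non-EC cells. Counts over all genes moved more with 1 library left out: 1426 became 568 to 1233 in Brg1-ECko and 71 became 0 to 14 in double mutant non-EC cells, and in LSECs 95 became 29 to 191 in Chd4-ECko and 117 became 24 to 105 in the double mutant. For the differences between fractions, 143 became 49 to 325 in Brg1-ECko, 140 became 16 to 1913 in Chd4-ECko and 8 became 0 to 17 in the double mutant. Over all 1674 combinations of member, comparison and alternative, 72 changed sign (63 with 1 library left out and 9 under quantile normalization), none of them called in either fit, and 8 were newly called. The turns under quantile normalization include Uros in Chd4-ECko LSECs (-0.019) and Fech in Brg1-ECko LSECs (-0.020). With 1 library left out, the signs that turned include those of 9 estimates given above, within these ranges: in Chd4-ECko LSECs -0.036 to 0.16 for Alad and -0.076 to 0.14 for Uros, in Brg1-ECko LSECs -0.059 to 1.097 for Cpox, -0.18 to 0.46 for Fech and -0.53 to 0.41 for Alas2, in the double mutant against Chd4-ECko LSECs -0.19 to 0.058 for Uros, in Chd4-ECko non-EC cells -0.41 to 0.75 for Alas2, and in double mutant non-EC cells -0.38 to 0.018 for Cpox and -1.05 to 0.11 for Alas2. The cause was not tested. With 3 embryos a group, the intervals of most member estimates in the mutants include both no difference and a change of 1.5-fold, and the depth reached by each library is not known.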
